A study of Caenorhabditis elegans with 8 samples.

Results

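The probes described here were dark on both arrays labelled hpl-1 his-24 and bright on all 6 arrays whose label names hpl-2. A probe counted as bright, or detected, when the scanner software marked every one of its spots as well above background, and as dark when it marked none of them. The rule took 207 probes of the 20401 on the array, and these carry 206 of its 20113 identifiers. The members were thus chosen by these detection marks, so that the members were lower on the hpl-1 his-24 arrays is the choice itself. It is described without a test. Differences among the 3 genotypes labelled with hpl-2 were tested, but the rule also touched these values: it asked for detection on all 6 arrays, and the limit of detection was lowest on the hpl-2 his-24 arrays, so dim values could enter there that could not elsewhere.

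The 8 one-colour arrays measured RNA of whole worms, with 2 arrays for each of 4 genotypes in the N2 strain. By the labels, 1 genotype carried all 3 alleles, hpl-1(tm1624) with hpl-2(tm1489) and with his-24(ok1024), and is called the triple mutant. The others carried a pair of the same alleles and are called hpl-2 his-24, then hpl-1 hpl-2, then hpl-1 his-24. Every sample was a pool of 80 to 100 animals grown at 21°C, labelled as L4 and young adult, and 600 ng of its RNA was copied and dyed with Cy3. No wild type and no single mutant was analysed here, so every comparison is between mutants, and in whole worms fewer cells of a type and less RNA per cell cannot be told apart.

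HPL-1 and HPL-2 are the heterochromatin protein 1 homologues of C. elegans. Proteins of this kind bind histone H3 methylated at lysine 9 and are known for keeping genes and repeats silent. HIS-24 is a linker histone of the H1 type, which binds the DNA between nucleosomes. In C. elegans lysine 9 methylation and repeats lie mostly on the outer arms of the autosomes, where large families of chemoreceptor, F-box and lectin genes are also found.

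The labels were checked with the probes of the deleted genes, and the check went against part of them. Levels are given throughout as the log2 signal minus the 75th percentile of the array's log2 signals, so that 0 is the level of that percentile. The hpl-1 probe read -0.60 and -0.53 on the arrays labelled with all 3 alleles, -0.49 and -0.65 on those labelled hpl-2 his-24, -9.04 and -8.81 on those labelled hpl-1 hpl-2, and -0.36 and -0.30 on those labelled hpl-1 his-24. It was therefore dark on 1 of the 3 genotypes labelled with hpl-1, although all 3 labels give the same allele, and genotype names below are those of the labels. For sterility and vulva phenotypes the paper lists another hpl-1 allele in its hpl-1 hpl-2 double mutant. For the microarrays it lists the allele of the labels. Which allele these arrays held was not tested. The his-24 probe was dark on the 6 arrays labelled with his-24 and read 0.31 and 0.46 on the hpl-1 hpl-2 arrays. The probe of the hpl-2 transcript K01G5.2a read between -1.22 and -0.78 on the arrays labelled with hpl-2, against 0.43 and 0.52 on the hpl-1 his-24 arrays. Whether any of these probes lies in the deleted part of its gene is not given in the sources used here. Of the marker lists, the summed level of 6 germ line genes was 45.7 to 59.6 on the 6 arrays labelled with hpl-2, against 35.3 and 37.5 times the 75th percentile on the hpl-1 his-24 arrays. That of 11 moulting genes was 32 to 73.1 against 75.4 and 84.2, while the sums for sperm, yolk, oocyte and male genes overlapped. The germ line sum was mostly that of glh-1, at 4.71 to 5.55. Both hpl-1 his-24 arrays read lowest for glh-1, pgl-1, fog-1 and fog-3, but not for pgl-3 and gld-1. The moulting sum was mostly that of col-19, at 4.89 to 6.18, and the male sum mostly that of 1 tra-2 probe, at 0.01 to 0.70. Both hpl-2 his-24 arrays read below all others for bli-1 (-7.28 and -6.77, against -1.78 to -0.44), bli-2, qua-1, nas-37 and col-19. They did not for noah-1, noah-2, mlt-8, mlt-10, ptr-4 and rol-6. Of the sperm genes they read lowest for spe-9, spe-38, spe-42, ssp-9, ssp-16, gsp-3 and gsp-4, but not for msp-31, msp-56 and msp-142. Of the male genes, the pkd-2 and lov-1 probes and 1 of 2 mab-3 probes were detected on all arrays of triple-mutant worms and of hpl-2 his-24 and were not detected in every spot on the other 4. The probes of her-1, cwp-1 and cwp-4 also read higher on those arrays than on the other 4. The rest of that list, ram-5, tra-2 and the other mab-3 probe, did not. The male gene cwp-1, the sperm gene spe-38 and the moulting gene bli-1 were not detected in every spot on at least 1 array. No marker was a member, and the part of these shifts in the members' levels was not tested.

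The members were dim genes. Their median level was -5.27 and -5.23 on the triple mutant arrays, -5.28 and -5.20 on the hpl-2 his-24 arrays, -5.27 and -5.17 on the hpl-1 hpl-2 arrays, and -7.88 and -8.07 on the hpl-1 his-24 arrays. Over the 6 arrays labelled with hpl-2 the median member averaged -5.24, while the median of the 16984 probes detected in at least 1 of these 3 genotypes averaged -1.82. In 198 members every one of the 6 values lay above both hpl-1 his-24 values. In the other 9 an hpl-2 his-24 value lay at or below an hpl-1 his-24 value, although only the hpl-2 his-24 spots were marked as detected. The limits of detection differed between arrays. The dimmest detected probe read -7.15 and -7.10 on the triple mutant arrays, -8.15 and -8.28 on the hpl-2 his-24 arrays, -6.76 and -6.51 on the hpl-1 hpl-2 arrays, and -6.79 and -6.39 on the hpl-1 his-24 arrays.

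**Figure D1:**
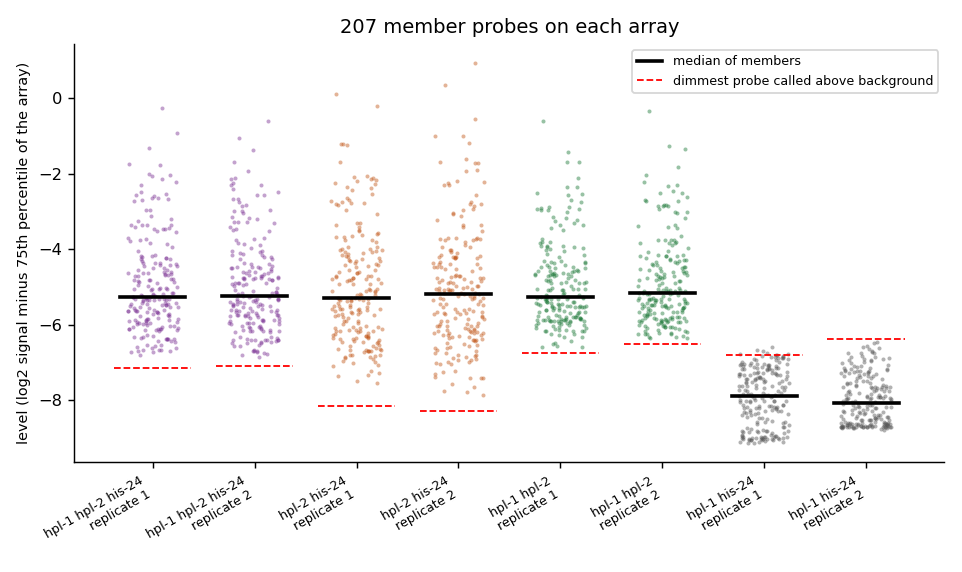
Level of each of the 207 member probes on each array (y axis, log2 signal minus the array's 75th percentile), with 1 point per probe, a black bar at the median and a red dashed line at the dimmest probe marked as detected on that array. The medians of the 6 arrays labelled with hpl-2 lie between -5.28 and -5.17, and those of the hpl-1 his-24 arrays at -7.88 and -8.07, and the red line is lowest on the hpl-2 his-24 arrays.

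The number of members rested on the detection mark and on 1 array. With the first hpl-1 his-24 array left out of the rule, 351 probes met it, and 218 did with the second left out. Of the 208 probes that missed the rule on a single array, 144 missed it because at least 1 spot was marked as detected on the first hpl-1 his-24 array. Dark did not mean without signal: by the software's laxer mark, a signal positive and above local background, 99 of the 207 members were seen in every spot of both hpl-1 his-24 arrays and 31 in none. When 1 limit, -6.39, was set on all arrays, 146 of the 207 members stayed above it on all 6 arrays labelled with hpl-2. The mirror rules gave far fewer probes by detection mark: 5 were dark only in triple-mutant worms, 15 only in hpl-2 his-24 and 47 only in hpl-1 hpl-2, and 15 were detected only in hpl-1 his-24. With the 1 limit the counts were 12, 194, 36 and, for hpl-1 his-24, 236 probes below it in that genotype alone. The number for hpl-2 his-24 thus depended on where the limit was set.

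Since the hpl-1 his-24 arrays gave only a limit, the difference from them is given as a lower bound, the mean level in a genotype against the higher of the member's own level and the array's limit. The bound was above 1-fold in all 3 genotypes for 176 members, above 2-fold for 95, above 4-fold for 39 and above 16-fold for 5. Taken by genotype, it was above 1-fold for 200 members in triple-mutant worms, 182 in hpl-2 his-24 and 207 in hpl-1 hpl-2. The largest bounds belonged to F26F2.3, at least 139-fold higher in hpl-2 his-24, F26F2.4, at least 102-fold higher in hpl-2 his-24, F58E2.2, at least 72.1-fold higher in triple-mutant worms, sru-47, at least 69.2-fold higher in hpl-1 hpl-2, and Y39G8B.5, at least 51.9-fold higher in hpl-2 his-24. On the log2 scale these 5 bounds were 7.12, 6.68, 6.17, 6.11 and 5.70, and they shrank to 5.86, 5.44, 4.96, 4.84 and 4.56 when the background was corrected by the normexp method.

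The brightest members included several whose 3 genotype levels lay close together. The chemoreceptor gene sru-47 (F36D1.3, chromosome I) read -0.91 and -1.06 on the triple mutant arrays, -1.20 and -0.99 on the hpl-2 his-24 arrays and -0.61 and -0.35 on the hpl-1 hpl-2 arrays, against -7.82 and -8.17 on the hpl-1 his-24 arrays. irld-60 (ZC482.2, chromosome III), of a family with the ligand-binding domain of insulin and EGF receptors, read -1.32 and -1.37 in triple-mutant worms, -1.69 and -1.68 in hpl-2 his-24 and -1.41 and -1.25 in hpl-1 hpl-2, against -8.19 and -8.72 in hpl-1 his-24. For these 2 genes no value of an array labelled with hpl-2 overlapped those of hpl-1 his-24, as in 198 of the 207 members, which the rule itself made likely. Y6E2A.7 on chromosome V read -2.20 and -2.30 in triple-mutant worms, -2.18 and -1.71 in hpl-2 his-24 and -2.34 and -2.33 in hpl-1 hpl-2, against -8.13 and -8.51 in hpl-1 his-24, and no difference among the first 3 passed the test. The same held for T02G6.3 on chromosome I and the chemoreceptor gene sri-31 on chromosome II, whose bounds were at least 23.9-fold, 21.2-fold and 14.7-fold, and at least 17.2-fold, 17.2-fold and 19.8-fold higher in triple-mutant worms, hpl-2 his-24 mutants and the hpl-1 hpl-2 double mutant. Y49E10.25 on chromosome III had bounds of at least 14.2-fold, 23.9-fold and 17.0-fold in the same order.

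Chemoreceptor genes were the largest family. These genes code for membrane receptors coupled to G proteins, which the worm uses in its sensory neurons to detect chemicals. They held 27 of the 207 members, 13%, while the same families made up 6.43% of all probes and 1.65% of the probes detected in at least 1 genotype labelled with hpl-2. Members had to be dark in hpl-1 his-24, which these backgrounds did not require. Most chemoreceptor probes were dark everywhere: 762 of 1311 on all 8 arrays, and 1095 on both hpl-1 his-24 arrays. Of all probes, 4144 were dark on the first hpl-1 his-24 array and 4620 on the second. Chemoreceptors were therefore a larger share of the probes dark on both than of the members. The share of the 1311 probes detected was 15.1% and 15.9% in triple-mutant worms, 23.4% and 22.0% in hpl-2 his-24 and 11.9% and 10.8% in hpl-1 hpl-2, against 10.6% and 8.70% in hpl-1 his-24, and it was highest on the arrays with the lowest limit of detection. The members came from 12 subfamilies, among them str- with 6, sre- with 5 and srh- with 4. Chromosome V held 19 of the 27, and 900 of the 1311 on the array. With the 1 limit on all arrays 16 of the 27 stayed above it.

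**Figure D2:**
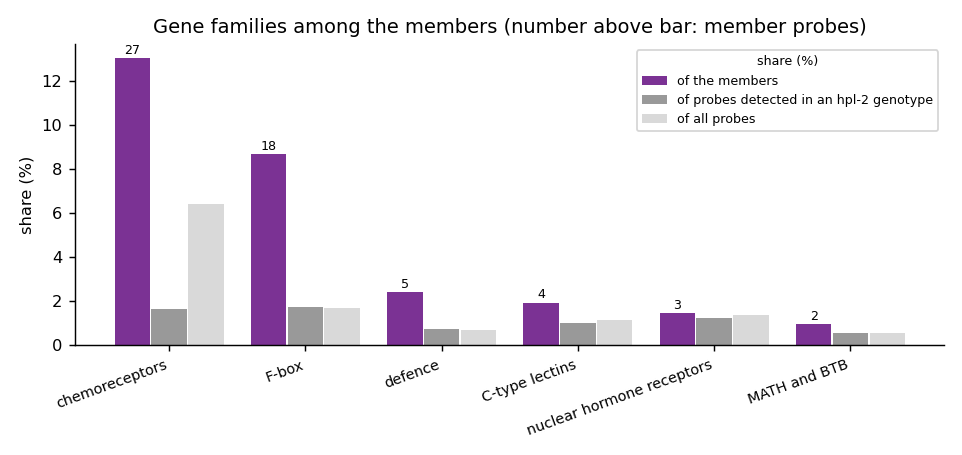
Share (%, y axis) of each gene family with at least 2 member probes, among the members, among the 16984 probes detected in at least 1 genotype labelled with hpl-2, and among all probes, with the number of member probes above the bar of the members. Chemoreceptors hold 13% and F-box genes 8.70% of the members, against 1.65% and 1.73% of the detected probes. Neither background was limited to probes dark on the hpl-1 his-24 arrays, of which chemoreceptors held a larger share than of the members.

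Within the chemoreceptors the order of the genotypes was not shared. sre-22 (F36D1.2), the next gene to sru-47, read -2.65 and -2.66 in triple-mutant worms, -2.27 and -2.25 in hpl-2 his-24 and -2.10 and -2.02 in hpl-1 hpl-2, against -7.64 and -6.74 in hpl-1 his-24. str-262 (C05E4.13) read -4.79 and -4.79 in triple-mutant worms, against -6.45 and -6.30 in hpl-2 his-24, and was 1.59 log2 units higher in triple-mutant worms (SE 0.11, adjusted p = 0.0008). In the background 9.02% of the 16984 probes were called higher in this comparison. sri-43 (T10D4.10) read -3.93 and -3.69 in hpl-2 his-24, against -5.29 and -5.34 in hpl-1 hpl-2, a difference of 1.5 (SE 0.12, adjusted p = 0.001). srsx-26 (C51E3.1) went the other way, with -6.87 and -7.01 in hpl-2 his-24 against -5.18 and -5.32 in hpl-1 hpl-2 (difference -1.69, SE 0.11, adjusted p = 0.00068) and its hpl-2 his-24 values overlapped those of hpl-1 his-24, -7.19 and -6.89. All 3 calls were lost under normexp correction (0.93, 1.17 and -0.81) and with the authors' processed values (0.62, 1.27 and -0.58), and those of str-262 and srsx-26 under quantile normalization as well (1.13 and -1.42). By the adjusted p alone 15 chemoreceptor members were higher and 4 lower in triple-mutant worms than in hpl-2 his-24, where 25.5% and 21.0% of all probes were. In hpl-2 his-24 mutants 2 were higher and 17 lower than in the hpl-1 hpl-2 double mutant, where 21.5% and 25.3% of all probes were. The median differences were 0.71 and -0.62. Their directions held, with smaller sizes, under quantile normalization (0.16 and -0.43), normexp correction (0.31 and -0.34) and the authors' processed values (0.09 and -0.22). These runs kept the same members, and the rule let dimmer values in on the hpl-2 his-24 arrays than elsewhere. They therefore cannot tell a lower level in hpl-2 his-24 from the choice of members. Medians of only the chemoreceptor members above the 1 limit on all arrays were not tested. Among all 280 chemoreceptor probes tested, 98 were higher and 43 lower in triple-mutant worms than in hpl-2 his-24, and 66 were higher and 85 lower in hpl-2 his-24 mutants than in the hpl-1 hpl-2 double mutant, with a median of -0.15.

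F-box genes were the next family, with 18 members of 342 probes on the array. F-box proteins bring substrates to ubiquitin ligases, and the worm has a large number of them. The family made up 8.70% of the members, 1.68% of all probes and 1.73% of the detected probes, and 14 of the 18 stayed above the 1 limit. They were fbxb- genes in 8 cases, fbxa- genes in 7 and fbxc- genes in 3, and lay on chromosome V in 7. The share of F-box probes detected was 82.2% and 79.5% in triple-mutant worms, 86.0% and 86.0% in hpl-2 his-24 and 77.5% and 76.3% in hpl-1 hpl-2, against 69.3% and 59.6% in hpl-1 his-24.

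No F-box member had its highest mean in triple-mutant worms: 7 were highest in hpl-2 his-24 and 11 in hpl-1 hpl-2. By the adjusted p alone 1 was higher and 7 lower (background 25.5% and 21.0%) in triple-mutant worms than in hpl-2 his-24, with a median of -0.45, and likewise 1 and 7 (background 9.04% and 8.21%) against hpl-1 hpl-2, with a median of -0.33. Both medians were negative under quantile normalization, normexp correction and the authors' processed values as well, from -0.90 to -0.39 and from -0.55 to -0.30. Between hpl-2 his-24 mutants and the hpl-1 hpl-2 double mutant the median was -0.19, and it was positive, 0.07 and 0.05, under quantile normalization and the authors' values. Among all 293 F-box probes tested, 44 were higher and 83 lower in triple-mutant worms than in hpl-2 his-24, and 37 and 64 than in hpl-1 hpl-2. fbxa-75 (Y119D3A.1, chromosome III) passed the fold limit upwards, with -2.05 and -2.12 in triple-mutant worms and -2.14 and -1.19 in hpl-2 his-24, against -3.73 and -3.89 in hpl-1 hpl-2. It was 1.72 (SE 0.31, adjusted p = 0.02) and 2.14 (SE 0.31, adjusted p = 0.0052) higher than in hpl-1 hpl-2. fbxa-44 (F09C6.2) was lower in triple-mutant worms, at -6.59 and -6.45, than in hpl-1 hpl-2, at -4.90 and -4.89 (difference -1.63, SE 0.24, adjusted p = 0.012), a call lost under normexp correction (-1.01) and with the authors' values (-0.85). Both calls against hpl-1 hpl-2 in triple-mutant worms were lost when any 1 of those 4 arrays was left out, with an adjusted p of up to 0.14 for fbxa-75 and 0.098 for fbxa-44.

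Some members belong to gene groups known from the response to intracellular infection. pals-5 is widely used as a reporter of the response to microsporidia and Orsay virus, and F26F2.1, F26F2.3 and F26F2.4 are known among the genes those infections induce. The neighbours F26F2.2, F26F2.3 and F26F2.4 on chromosome V were all members, and hpl-2 his-24 stood above both other genotypes in each. F26F2.2 read -4.69 and -4.70 in triple-mutant worms, -1.20 and -0.99 in hpl-2 his-24 and -5.39 and -5.31 in hpl-1 hpl-2, against -8.86 and -8.34 in hpl-1 his-24. It was 3.60 log2 units lower in triple-mutant worms than in hpl-2 his-24 (difference -3.60, SE 0.11, adjusted p = 8.5e-05), where 1.48% of all probes were called lower. In hpl-2 his-24 it was 4.26 higher than in hpl-1 hpl-2 (SE 0.11, adjusted p = 7.5e-05), the largest rise of a member in that comparison. F26F2.3 read -2.53 and -2.75 in triple-mutant worms, 0.12 and 0.94 in hpl-2 his-24 and -2.52 and -2.29 in hpl-1 hpl-2, against -7.15 and -6.91 in hpl-1 his-24. F26F2.4 read -2.63 and -2.85, -0.20 and 0.37, and -3.35 and -3.38 in the same order of genotypes, against -7.87 and -8.48 in hpl-1 his-24. The values of hpl-2 his-24 did not overlap those of any other genotype in these 3 genes. With 2 arrays in each genotype that is a description, and the share of all probes that separate so was not counted.

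F26F2.1 and F26F2.5 beside them were also highest in hpl-2 his-24 but were detected on all 8 arrays. F26F2.1 read -2.75 and -2.40 in triple-mutant worms, -0.88 and -0.15 in hpl-2 his-24 and -3.0 and -3.06 in hpl-1 hpl-2, against -6.13 and -6.07 in hpl-1 his-24, where it was detected. Of the 7 F26F2 probes, 5 were called lower and 1 higher in triple-mutant worms than in hpl-2 his-24, where 1.48% and 9.02% of all probes were. In hpl-2 his-24 mutants 5 were called higher and 0 lower than in the hpl-1 hpl-2 double mutant, where 2.48% and 5.33% of all probes were. The probe called higher in triple-mutant worms was that of the lectin gene clec-263. Probe sequences were not used here, so signal that a probe takes from a near-identical neighbour cannot be told apart.

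Of 31 pals- probes 4 were members: pals-4 and pals-5 on chromosome I, pals-28 on III and pals-34 on V. pals-5 (C17H1.6) read -3.48 and -3.75 in triple-mutant worms, -2.77 and -2.22 in hpl-2 his-24 and -4.63 and -4.71 in hpl-1 hpl-2, against -8.51 and -8.72 in hpl-1 his-24. It was 2.17 higher in hpl-2 his-24 mutants than in the hpl-1 hpl-2 double mutant (SE 0.21, adjusted p = 0.0018), where 2.48% of all probes tested were called higher. pals-28 (B0284.4) read -3.51 and -3.28 in triple-mutant worms, -2.64 and -1.90 in hpl-2 his-24 and -4.12 and -4.19 in hpl-1 hpl-2, against -8.58 and -8.65 in hpl-1 his-24, and was 1.89 higher in hpl-2 his-24 mutants than in the hpl-1 hpl-2 double mutant (SE 0.25, adjusted p = 0.0044). pals-4 and pals-34 were 1.12 and 0.81 higher in the same comparison (adjusted p = 0.0014 and 0.005). All 4 had their highest mean in hpl-2 his-24 and their lowest, among the 3 genotypes labelled with hpl-2, in hpl-1 hpl-2. Not all pals- genes had this order. Of the 29 pals- probes tested, 4 were higher and 5 lower by the adjusted p in triple-mutant worms than in hpl-2 his-24, where 25.5% and 21.0% of all probes were. In hpl-2 his-24 mutants 14 were higher and 5 lower by the adjusted p than in the hpl-1 hpl-2 double mutant, where 21.5% and 25.3% of all probes were. Of the 31 probes 21 were detected on all 8 arrays.

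**Figure D3:**
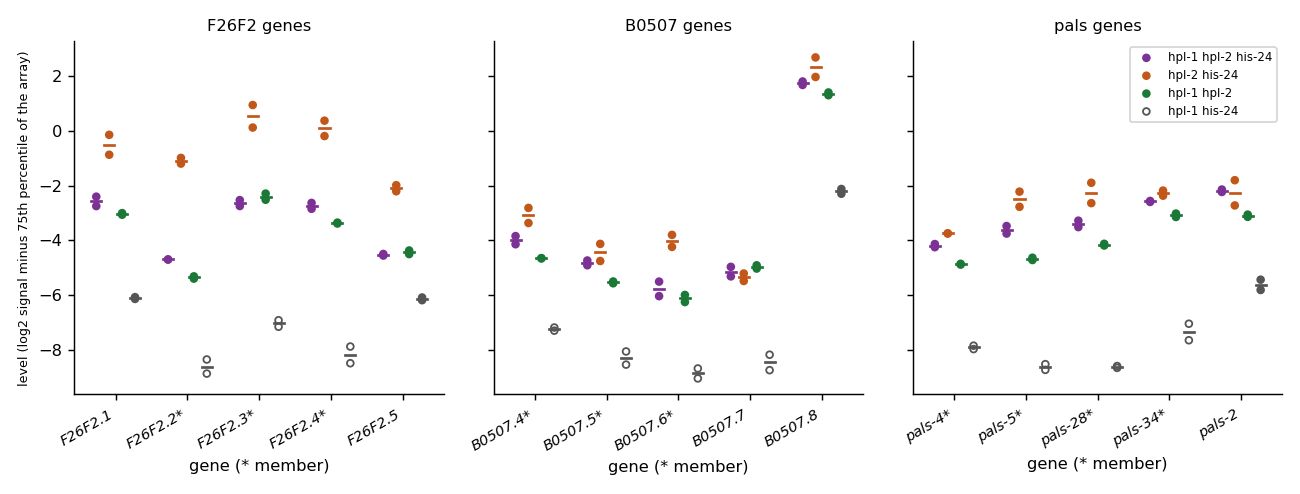
Levels (y axis, log2 signal minus the array's 75th percentile) of F26F2, B0507 and pals genes in the 4 genotypes (triple-mutant worms shown as hpl-1 with hpl-2 and his-24), with 1 point per array, filled where every spot was detected and open where not, and a bar at the mean of the 2 arrays; members carry an asterisk. In F26F2.2 the hpl-2 his-24 arrays read -1.20 and -0.99, above the triple mutant arrays at -4.69 and -4.70.

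The 3 adjacent genes B0507.4, B0507.5 and B0507.6 on chromosome V had the same order of means as the 4 pals- members. B0507.6 read -6.03 and -5.50 in triple-mutant worms, -4.24 and -3.80 in hpl-2 his-24 and -5.99 and -6.25 in hpl-1 hpl-2, against -9.03 and -8.67 in hpl-1 his-24. The difference was -1.75 between triple-mutant worms and hpl-2 his-24 (SE 0.24, adjusted p = 0.005) and 2.1 between hpl-2 his-24 mutants and the hpl-1 hpl-2 double mutant (SE 0.24, adjusted p = 0.0028). The first of these calls was lost under normexp correction (-1.35) and both with the authors' values (-1.40 and 1.45). B0507.7 missed the rule because part of its spots were detected on the first hpl-1 his-24 array, and 6 of the 10 B0507 probes were detected on all 8 arrays. The chitinase-like genes chil-16 and chil-18 on chromosome II were members as well, of 26 chil- probes. chil-18 read -3.40 and -3.16 in triple-mutant worms, -2.97 and -4.08 in hpl-2 his-24 and -3.82 and -3.76 in hpl-1 hpl-2, against -7.74 and -7.90 in hpl-1 his-24, and the hpl-2 his-24 values spanned those of both other genotypes labelled with hpl-2. The defence list gave 1 further member, scl-18 (T12A7.3), of the SCP family of secreted proteins. It read -3.46 and -3.47 in triple-mutant worms, against -5.46 and -5.37 in hpl-1 hpl-2 (difference 1.95, SE 0.38, adjusted p = 0.026). That call was lost when any 1 of these 4 arrays was left out (adjusted p from 0.12 to 0.15), and held when an hpl-2 his-24 array was (adjusted p = 7.7e-05). It was lost as well under normexp correction (1.49) and with the authors' values (1.24).

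Single members departed further. F58E2.2 on chromosome IV read -0.25 and -0.59 in triple-mutant worms, -2.24 and -2.30 in hpl-2 his-24 and -5.79 and -5.71 in hpl-1 hpl-2, against -9.03 and -8.64 in hpl-1 his-24. Values of the 4 genotypes did not overlap, which describes 2 arrays each and was not counted over all probes. F58E2.2 was 5.33 higher in triple-mutant worms than in hpl-1 hpl-2 (SE 0.14, adjusted p = 0.00011), the largest called difference of a member. F14F9.6 on chromosome V had the opposite order, with -4.54 and -4.79 in triple-mutant worms, -3.06 and -3.72 in hpl-2 his-24 and -1.70 and -1.34 in hpl-1 hpl-2, against -8.38 and -8.48 in hpl-1 his-24. It was 3.15 lower in triple-mutant worms than in hpl-1 hpl-2 (difference -3.15, SE 0.26, adjusted p = 0.0018). The insulin-like peptide gene ins-8 (ZK1251.11, chromosome IV) read -6.56 and -6.80 in triple-mutant worms, -4.38 and -5.99 in hpl-2 his-24 and -2.87 and -2.70 in hpl-1 hpl-2, against -8.92 and -8.21 in hpl-1 his-24. Its difference between triple-mutant worms and hpl-1 hpl-2 was -3.89 (SE 0.51, adjusted p = 0.0076), and the adjusted p was 0.058 to 0.076 when 1 of those 4 arrays was left out and 2.0e-05 when an hpl-2 his-24 array was. tbx-37 (Y47D3A.12, chromosome III), a T-box transcription factor of the early embryo, read -6.05 and -5.98 in triple-mutant worms, -4.39 and -4.03 in hpl-2 his-24 and -4.33 and -4.27 in hpl-1 hpl-2, against -9.09 and -8.17 in hpl-1 his-24. It was lower in triple-mutant worms than in both (differences -1.80 and -1.71, SE 0.14 each, adjusted p = 0.0013 and 0.002), but both differences fell short of the fold limit under normexp correction (-1.35 and -1.27) and with the authors' values (-1.41 and -1.14).

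Of the remaining called members with the largest differences, mltn-2 (Y52B11A.7, chromosome I) read -4.80 and -4.75 in triple-mutant worms and -6.86 and -6.81 in hpl-2 his-24, against -4.48 and -4.47 in hpl-1 hpl-2, and was 2.06 higher in triple-mutant worms than in hpl-2 his-24 (SE 0.093, adjusted p = 0.00024). The lectin gene clec-261 (ZC15.6) was 1.80 higher in the same comparison (SE 0.12, adjusted p = 0.00073), and F47F6.4 and T24D8.6 were 2.19 and 2.00 higher. None of these 4 calls held under normexp correction, where the differences were 1.07 for mltn-2, 1.07 for clec-261, 0.85 for F47F6.4 and 1.13 for T24D8.6, or with the authors' values, where they were 0.79, 0.77, 0.61 and 0.83, and that of clec-261 was lost under quantile normalization too (1.38). F22E5.7 was lower (difference -2.09, SE 0.22, adjusted p = 0.0026). Against hpl-1 hpl-2, ZK177.9, R07C12.3 and F56H6.2 were 2.24, 2.06 and 1.86 higher in triple-mutant worms, and C39B5.10 and C01G10.4 were lower (differences -2.39 and -2.23), the first with an adjusted p of 0.052 to 0.064 when 1 of those 4 arrays was left out. The call of F56H6.2 was lost under normexp correction (1.38) and with the authors' values (1.17). In hpl-2 his-24 mutants against the hpl-1 hpl-2 double mutant, F46F5.5 was lower (difference -1.83, SE 0.23, adjusted p = 0.0038), and was not called under normexp correction (-0.69) or with the authors' values (-0.51). Of F47F6.4, T24D8.6, mltn-2, F46F5.5 and srsx-26, the hpl-2 his-24 arrays read below -6.39, the highest limit of detection. Those of F47F6.4, -7.33 and -7.57, lay below both of its hpl-1 his-24 values, -7.08 and -6.64.

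Other regulators among the members did not pass the fold limit in any comparison. set-24 (Y43F11A.5), a SET domain gene, read -4.78 and -4.52 in triple-mutant worms, -4.41 and -4.21 in hpl-2 his-24 and -3.91 and -3.77 in hpl-1 hpl-2, against -7.33 and -8.30 in hpl-1 his-24. dot-1.4 (F55G7.2), of the DOT1 family of histone methyltransferases, had bounds of at least 2.22-fold, 1.54-fold and 2.42-fold in triple-mutant worms, hpl-2 his-24 mutants and the hpl-1 hpl-2 double mutant. The neurogenin gene ngn-1 had bounds of at least 1.99-fold, 1.21-fold and 2.84-fold. The nuclear hormone receptor genes nhr-81, nhr-186 and nhr-249, the potassium channel gene twk-31 and bath-33, of the MATH and BTB family, had no bound above 2.11-fold in any genotype, while math-5 of the same family had bounds of at least 9.29-fold, 22.9-fold and 13-fold. No member belonged to the lists of xenobiotic enzymes, collagens, sperm, yolk, heat shock, small RNA, hedgehog-related, astacin, histone or transthyretin-related genes, and 145 members were in none of the lists. C-type lectins, which bind carbohydrates, gave 4 members of 239 probes: clec-44, clec-102, clec-163 and clec-261.

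Across the members as a whole, 34 passed both limits, an adjusted p below 0.05 and a difference above 1.5 log2 units, in at least 1 of the 3 comparisons, and 173 in none. In triple-mutant worms against hpl-2 his-24, 16 members were called, 7 higher and 9 lower, while 10.5% of the 16984 probes were called, 9.02% higher and 1.48% lower. Against hpl-1 hpl-2, 14 were called, 7 higher and 7 lower, where 3.74% of all probes were called, 2.49% higher and 1.25% lower. All 14 had the sign of the call on both slides that held 1 array of each of these genotypes. These are the same arrays that gave the calls, so the shared sign adds no separate evidence. The count was 8 without the second hpl-1 hpl-2 array or without the second triple mutant array, and 9 without the first triple mutant array. In hpl-2 his-24 mutants against the hpl-1 hpl-2 double mutant, 22 were called, 16 higher and 6 lower, where 7.81% of all probes were called, 2.48% higher and 5.33% lower. By the adjusted p alone 50.7%, 32.9% and 56% of the members passed in the 3 comparisons, beside 46.6%, 17.2% and 46.7% of all probes tested. The 3 genotype means lay within 1 log2 unit of each other in 114 members. Both hpl-2 his-24 arrays shared a slide and a scan day with no other genotype, so slide and genotype cannot be told apart in the comparisons with it. Each hpl-1 his-24 array lay on a slide that held no other array used here. Slide and genotype therefore cannot be told apart in the contrast that chose the members, or in the bounds, either.

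**Figure D4:**
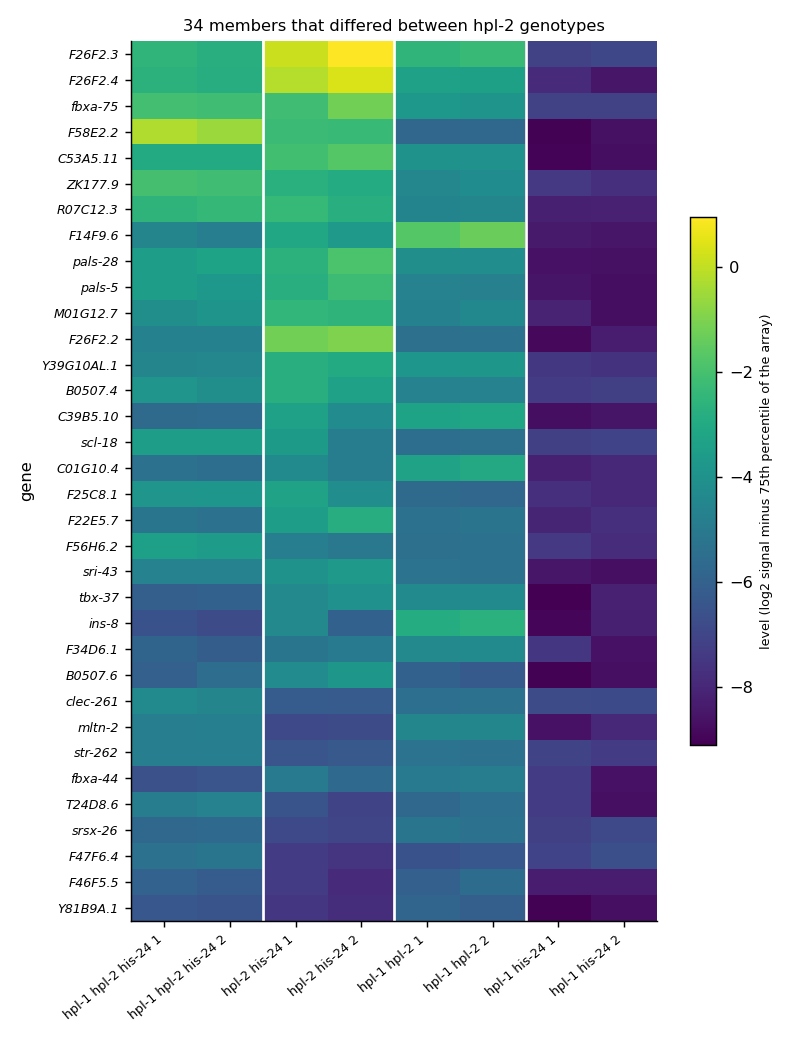
Level (colour, log2 signal minus the array's 75th percentile) of the 34 members called in at least 1 comparison among the genotypes labelled with hpl-2, with genes as rows and the 8 arrays as columns, hpl-1 his-24 at the right. F26F2.3 is brightest in hpl-2 his-24 (0.12 and 0.94), F58E2.2 in triple-mutant worms (-0.25 and -0.59) and F14F9.6 in hpl-1 hpl-2 (-1.70 and -1.34).

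The highest mean was that of triple-mutant worms in 65 members, hpl-2 his-24 in 49 and hpl-1 hpl-2 in 93, or 31.4%, 23.7% and 44.9%. Of all probes tested the shares were 31.4%, 38.4% and 30.2%, but these did not have to be detected on all 6 arrays, whose limits were unequal, so the shares are a description. The median difference of all members was 0.13 between triple-mutant worms and hpl-2 his-24, -0.12 between triple-mutant worms and hpl-1 hpl-2, and -0.29 between hpl-2 his-24 mutants and the hpl-1 hpl-2 double mutant, beside -0.01, 0.02 and -0.04 over all probes tested. The first of these turned to -0.33 and -0.16 under quantile normalization and with the authors' processed values, and the last shrank to -0.04 under both. In the 146 members above the 1 limit on all 6 arrays, the medians were -0.011, 0.042 and -0.098, so 2 of the 3 changed sign, and the calls were 2 higher and 9 lower, 7 and 5, and 16 and 1 in the same order. The 2 arrays of a genotype differed by a median of 0.13 in triple-mutant worms, 0.28 in hpl-2 his-24 and 0.12 in hpl-1 hpl-2 over the members. Y60C6A.1 on chromosome V had the widest such gap of any member in these 3 genotypes, with -2.79 and -7.41 in hpl-2 his-24 beside -3.47 and -3.74 in triple-mutant worms and -4.03 and -3.82 in hpl-1 hpl-2.

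The members lay towards the ends of the chromosomes. Of the 185 members on autosomes, 160 or 86.5% fell in the outer parts when the range that the array's probes span was cut into 3 equal parts, while 62.1% of all autosomal probes and 59.8% of the detected ones did. On the X chromosome, 20 of 22 members fell there, 90.9%, and 64.7% of all probes. On chromosome I all 24 members lay in the outer parts, 20 of them in the right part, where 32.4% of the probes of that chromosome lie. On chromosome II the left part held 25 of 39. Chromosome V carried 69 members, 33.3%, and 24.2% of all probes, whereas chromosome III carried 16, 7.73%, and 13.6% of all probes. Of the 40 autosomal probes dark only in hpl-1 hpl-2, 80.0% were in the outer parts, and of the 14 dark only in hpl-2 his-24, 42.9%.

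**Figure D5:**
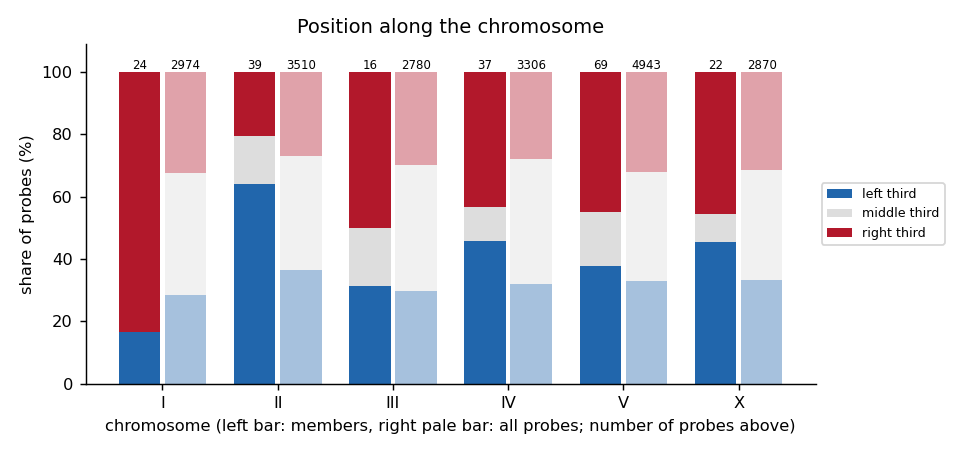
Share of probes (%, y axis) in the left, middle and right part (each of equal length) of each chromosome, for members (solid, left bar) and all probes (pale, right bar), with the number of probes above each bar. On chromosome I 20 of 24 members are in the right part and none is in the middle part, and on every chromosome the middle part holds a smaller share of the members than of all probes.

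Members were also found side by side. Another member of a different gene lay within 20 kb of 55 members, 26.6%, in 23 groups, 11 of them on chromosome V and 6 on chromosome II. Of the 47 probes dark only in hpl-1 hpl-2, 17.0% had such a neighbour, and of the 3 smaller mirror sets none had, but these sets differ in size from the members and were not tested against them. In 11 groups no other gene of the array lay between the members. These were sre-22 with sru-47, T05A8.1 with T05A8.2, Y53F4B.8 with Y53F4B.10, Y17G9B.2 with npp-26, trx-5 with K02H11.9, str-209 with str-207, the B0507 and F26F2 trios, Y59A8A.7 with srh-286, R09H3.1 with an unnamed probe, and F07G6.2 with dgn-3. The largest group held fbxb-1, fbxb-117, fbxb-60, F21D9.1, F21D9.5 and F21D9.8 within 58.8 kb of chromosome V, among 9 other genes of the array. The other groups paired fbxc-31 with clec-44, str-148 with K02E7.10, chil-16 with chil-18, sre-50 with sre-51, str-262 with C05E4.12, irld-11 with K04F1.8, F55C5.10 with srh-16 and fbxa-174 with fbxa-171, or joined C17H1.2 with pals-4 and pals-5, dct-13 with Y116A8C.20 and Y116A8C.44, and F56A4.11 with Y19D10A.10 and an unnamed probe. Of the 39 other probes lying between such members, 21 were detected on all 8 arrays and 14 were dark on both hpl-1 his-24 arrays. Of these 14, 8 were dark on all 8 arrays.

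Neighbours shared an order in some groups and not in others. In trx-5, a thioredoxin gene, and K02H11.9 beside it hpl-2 his-24 was lowest of the 3 genotypes, with -4.30 and -4.47 and with -4.18 and -4.21, against -3.94 and -3.83 and against -2.96 and -2.84 in hpl-1 hpl-2. The dystroglycan-like gene dgn-3 read -3.19 and -3.27 in triple-mutant worms, -3.68 and -3.74 in hpl-2 his-24 and -2.94 and -2.83 in hpl-1 hpl-2, against -9.0 and -8.65 in hpl-1 his-24, and F07G6.2 beside it had the same order. In the pair str-209 and str-207, hpl-2 his-24 was lowest in both, with -3.95 and -3.40 and with -6.16 and -5.67. The neighbours fbxc-31 and clec-44 differed: fbxc-31 was highest in hpl-1 hpl-2, at -4.63 and -4.30, and clec-44, a pseudogene in the RefSeq table, was highest in triple-mutant worms, at -2.13 and -2.24.

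Of the 207 members, 191 matched a gene of the RefSeq table. Pseudogenes made up 19 of the members, 9.18%, while they were 4.09% of all probes and 2.94% of the detected ones, and 1 member, W05H5.2, was a non-coding RNA. Both of the 2 probes of C44B12.7, described on the array as a reverse transcriptase, were members. In 3 genes another probe of the same gene was no member. The second gei-18 probe was detected on all 8 arrays, at -2.27 and -2.55 in hpl-1 his-24, and the second probes of B0546.5 and srm-6 were detected in every spot on none.

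The members nearest to the limit were frpr-14, a peptide receptor gene, fbxb-85 and Y105C5A.9, whose highest hpl-1 his-24 values were -6.45, -6.49 and -6.56. Just outside it lay ifas-2, sri-70 and math-6, each detected in part of its spots on 1 hpl-1 his-24 array. On the hpl-1 his-24 arrays they read -6.88 and -7.13, -7.24 and -8.07, and -7.28 and -6.74.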

How the data were processed

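The authors hybridised Cy3-labelled RNA of each sample to a one-colour Agilent array and scanned it with Feature Extraction 9.5.3.1. The deposited spot intensity (processed signal, background-subtracted) was taken as log2, marked outlier spots were left out, spots of a probe were averaged, and the 75th percentile of the array was subtracted. The deposited detection marks, other values of 0 or 1 per the file headers, gave the rule for members. The authors' processed log2 values, quantile normalized between arrays, were an alternative. Differences were fitted with limma 3.58.1 in R 4.3.3 (lmFit and eBayes, two-sided) on the 6 arrays labelled with hpl-2, with 3 residual and 2.44 prior degrees of freedom, and adjusted by Benjamini-Hochberg over 16984 probes detected in at least 1 genotype. A call needed an adjusted p below 0.05 and a difference beyond 1.5. The paper describes the 2 arrays of a genotype as independent biological replicates, but does not say whether they came from separate cultures. The p-values measure only the spread between these arrays. In a test on simulated data for triple-mutant worms against hpl-2 his-24, 85 of 100 probes changed by 2 and 94 of 100 changed by 3 log2 units were recovered. The changed probes were drawn from all probes tested, with a median level of -1.82 beside -5.24 for the members. Recovery among dim members was not measured.

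Named genes were the 10 brightest members, the 5 largest bounds, the 5 largest called differences in each direction of each comparison, members of the gene lists and their groups. Members and lists were chosen with earlier results of these data known. Names and biotypes came from the RefSeq table of WBcel235, and chromosome parts and distances from the array's own positions, whose build is not given in the sources used here. Tables were handled in Python 3.11.15 with pandas 2.3.3 and numpy 2.4.6, and figures drawn with matplotlib 3.10.9.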

Additional observations from a re-analysis of the deposited data

How the results depend on the processing

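All called members kept their direction under every alternative run, while the number past both limits moved. The rule gave 207 probes, 84 by the software's laxer mark of signal above local background, of which only 31 were among the 207, and 208 to 351 with 1 array left out, the highest without the first hpl-1 his-24 array. For triple-mutant worms against hpl-2 his-24, 16 members were called, 5 after normexp correction, 7 with the authors' values, 105 by the adjusted p alone and 14 to 24 with 1 array left out. Against hpl-1 hpl-2 the counts were 14, 8, 8, 68 and 8 to 16, and for hpl-2 his-24 mutants against the hpl-1 hpl-2 double mutant they were 22, 14, 13, 116 and 20 to 30. Quantile normalization called 22, 19 and 23 members, and split the first into 4 higher and 18 lower.

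The median difference of the members between triple-mutant worms and hpl-2 his-24 was 0.13, -0.33 after quantile normalization, 0.00067 after normexp, -0.16 with the authors' values and 0.069 to 0.20 with 1 array left out. Against hpl-1 hpl-2 it was -0.12, -0.28 after quantile normalization and -0.12 to -0.052 with 1 array left out. Between hpl-2 his-24 mutants and the hpl-1 hpl-2 double mutant it was -0.29, -0.039 after quantile normalization, -0.17 after normexp, -0.041 with the authors' values and -0.34 to -0.28 with 1 array left out. The causes were not tested. Members with a neighbour within 10 kb and 50 kb were 19.8% and 41.5%, and 74.6% of the autosomal members lay in the outer parts when each chromosome was cut into 4, as did 45% of all autosomal probes.

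With the replicate number as a block the counts of called members were 16, 14 and 22, as without it. Deviations of same-numbered arrays correlated at 0.022, -0.32 and 0.0074, so the numbers do not pair the arrays. The crossed pairing of triple-mutant worms with hpl-1 hpl-2 is that of their shared slides, and called 16 members, as did the same 4 arrays without a block. The 1 limit on all arrays and this last fit were chosen after seeing the data.

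With 2 arrays in each genotype, an arm left with 1 array was assumed to vary like the others. Members were dim, and 61 of the 207 had a value at or below -6.39, the highest limit of detection, on an array labelled with hpl-2. Bounds of such members are low, and fewer members passed both limits after normexp correction and with the authors' values.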
